A study of Mus musculus with 12 samples.

Results

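Loss of the transcription factor T-bet can act on regulatory T cells (Tregs) by a different amount in one tissue than in another. The comparison here asked, gene by gene, whether the difference between T-bet knockout and control Tregs was the same in perigonadal fat as in spleen. It took the knockout minus control difference in fat and subtracted the knockout minus control difference in spleen, and the result is called the interaction. All 12 of the 12 arrays of the series entered it, 3 in each of 4 groups. Values are log2 bead intensities, so an interaction of 1 means that the knockout to control ratio was 2 times as large in fat as in spleen.

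The Tregs came from the spleen or the perigonadal fat of C57BL/6 mice kept on chow, and RNA was amplified before it was hybridised to Illumina bead arrays. All 4 groups carried Foxp3-YFP-Cre, a Cre recombinase expressed from the Foxp3 locus that marks Tregs. Spleen Control and PG Fat Control carried this allele alone, labelled Foxp3Cre, and Spleen TBetKO and PG Fat Tbet KO carried it with Tbx21-flox, labelled Tbetflox Foxp3Cre. Deletion of Tbx21, the gene of T-bet, is therefore limited to cells that express the Cre. Neither age nor sex nor the number of animals behind an array is stated in the labels, so p-values measure the spread between these arrays, which may be technical.

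T-bet is the T-box transcription factor of type 1 immunity, and in Tregs it is known for switching on the chemokine receptor gene Cxcr3 and for placing cells at sites of type 1 inflammation. Tregs of visceral fat are a distinct population that depends on the nuclear receptor PPARγ, and they express GATA3 and genes of lipid handling that splenic Tregs largely lack. A gene that T-bet controls in only one of these settings would show an interaction.

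Detection ranged from 27.0 to 40.9% of 45281 probes over the arrays. Replicate arrays correlated over genes at 0.881 to 0.915 in the spleen groups and at 0.771 to 0.844 in the fat groups, and the median SD between replicates was 0.43 and 0.42 in spleen control and knockout against 0.55 and 0.52 in fat. Each of the 3 slides held 1 array of every group, with the same replicate number, and an interaction could therefore also be computed within each slide. Every group kept the same array position on all slides, so position and group cannot be told apart. The filter kept probes detected in at least 3 arrays. The 1981 probes at exactly 3 arrays had a median level of 4.89, and the 2633 left out with exactly 2 had one of 4.78.

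The targeted gene was read first. Tbx21 gave 4.54, 4.88 and 5.19 in spleen control, 4.69, 5.74 and 4.72 in spleen knockout, 5.50, 7.27 and 5.17 in fat control, and 6.62, 7.57 and 4.94 in fat knockout. It was detected on 1 or 2 of the 3 arrays of each group, and knockout and control overlapped in both tissues. Its interaction was 0.22 (SE 0.95, 95% interval −1.86 to 2.30), with 0.97, −0.55 and 0.23 on the 3 slides. The labels do not place this probe inside or outside the floxed segment, so its signal does not check the deletion.

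Foxp3, the lineage factor of Tregs, read 7.03, 7.85 and 8.32 in spleen control and 8.93, 6.39 and 8.78 in spleen knockout. In fat it read 8.53, 7.20 and 8.98 in control and 8.71, 9.10 and 9.23 in knockout. The groups overlapped in both tissues. The interaction of 0.48 (SE 0.94, 95% interval −1.58 to 2.53) came from slide values of −1.72, 3.37 and −0.21, and the other 2 Foxp3 probes gave −0.92 and 0.16.

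Across the transcriptome no gene had an interaction larger than the spread between replicates allowed to call. Of 10025 genes tested with limma, 0 (0%) had a Benjamini-Hochberg adjusted p below 0.05, and the smallest adjusted p was 0.319. At an unadjusted p below 0.05 there were 382 genes (3.81%), 199 above 0 (1.99%) and 183 below (1.83%). Both directions were thus about equally common. The same fit found 646 genes (6.44%) that differed between fat and spleen in control mice and 579 (5.78%) in knockout mice, with a median SE of 0.48 for such a difference of 2 groups and 0.67 for the interaction.

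**Figure D1:**
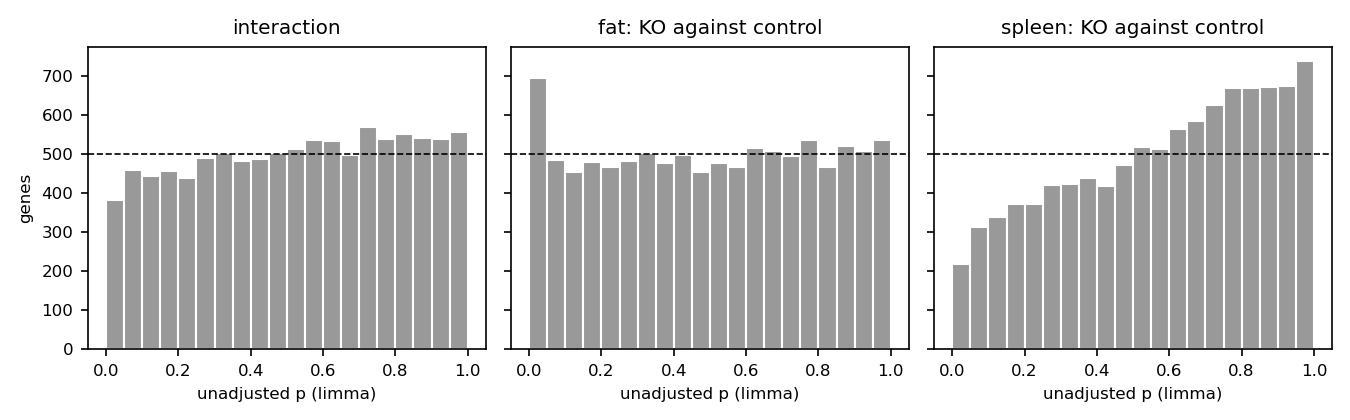
Number of genes (vertical axis) by unadjusted limma p in bins of 0.05 (horizontal axis), for the interaction, for T-bet knockout (KO) against control in fat, and for the same in spleen; the dashed line is an equal share of the 10025 genes in every bin. The bin below 0.05 holds 382 genes for the interaction, 695 for fat and 219 for spleen.

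The 2 differences that make up the interaction were unequal in spread. Over all genes the knockout minus control difference had an SD of 0.62 in fat and 0.44 in spleen, and the interaction one of 0.75, while the medians were 0.01, 0.00 and −0.02. The unadjusted counts followed the same order, with 695 genes (6.93%) in fat and 219 (2.18%) in spleen. When each tissue was weighted by its own spread, a setting added after the data were seen, these counts became 491 and 392, and that of the interaction 391. The excess in fat over spleen was smaller in that setting, and its cause was not tested.

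**Figure D2:**
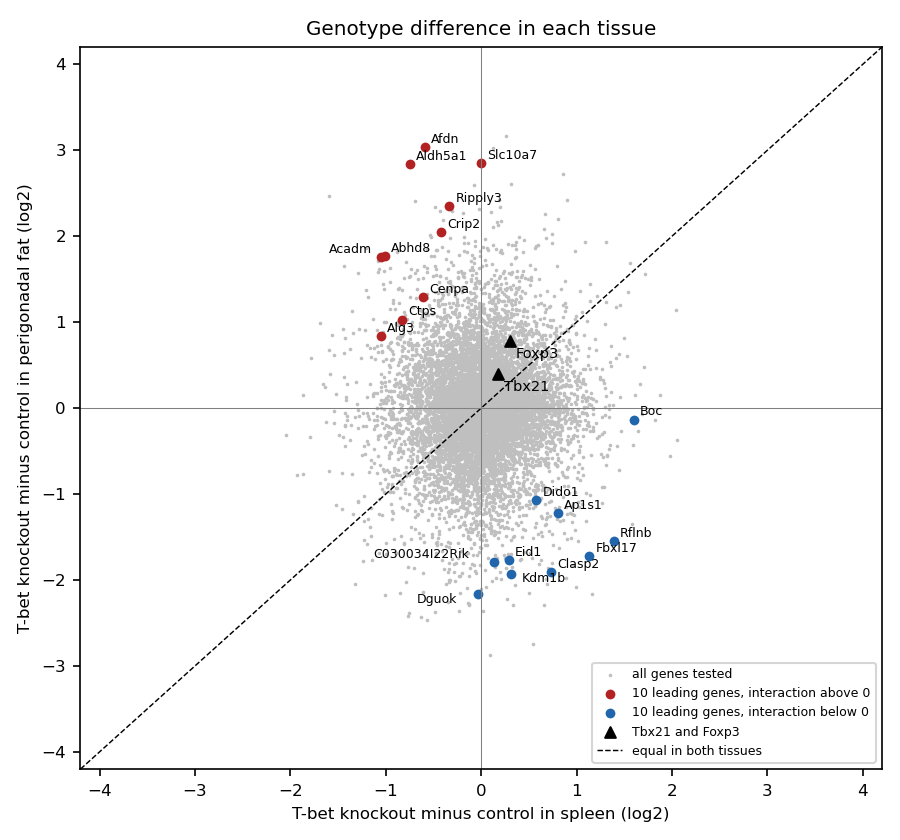
Knockout minus control difference in spleen (horizontal axis, log2) against that in perigonadal fat (vertical axis, log2), 1 point per gene; the interaction is the vertical distance from the dashed line, where both tissues are equal. The 10 genes leading above 0 (red) have fat differences of 0.84 to 3.03, and Tbx21 and Foxp3 (triangles) lie near the line.

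The 3 slides gave 3 separate readings of the interaction, and they did not resemble each other. Over all genes the correlation was −0.03 between slides 1 and 2, 0.02 between 1 and 3, and −0.01 between 2 and 3, given as a description since genes are not independent. The interaction had the same sign on all 3 slides for 2524 genes (25.2%), 1249 above 0 (12.5%) and 1275 below (12.7%). In both tissues without overlap, fat up and spleen down, stood 24 genes (0.239%), and 10 (0.0998%) were the other way round.

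Precision limits what the absence of calls says. The median 95% interval reached 1.47 to either side of the estimate, a ratio of 2.77-fold between the tissues. It lay wholly within −1 and 1 for 253 genes (2.52%) and within −2 and 2, a 4-fold ratio either way, for 5062 genes (50.5%). For the other genes the interval does not leave out an interaction beyond that size. Probes without a single gene symbol also had 0 of 3897 called, with 104 (2.67%) at an unadjusted p below 0.05. The smallest p of all 20367 kept probes belonged to such a probe. Its interaction was −3.61 (limma p 7.42e-06, adjusted p 0.151 over the kept probes).

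The genes nearest to a call are described next, 10 on each side, taken by the smallest p among genes whose 3 slide values shared a sign. The interaction itself chose them, so their values are a description and not a test. The 10 above 0 ranged from 1.86 to 3.62 and their adjusted p from 0.319 to 0.900. By group means the knockout was above control in fat and below it in spleen in every one. For Slc10a7 the spleen difference was only −0.01 (SE 0.34). Choice by the interaction favours such opposite signs, on both sides of 0. The fat difference was the larger in 9. Fat knockout and fat control did not overlap in any of the 10, where 4.48% of all genes had fat knockout above control in this way. Spleen did not overlap in 5, where 4.09% of all genes had spleen knockout below control. In 5 of them no fat control array was detected, so the fat difference has only a lower bound.

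Slc10a7, a membrane protein of the bile acid transporter family, had the smallest p. It read 4.80, 4.74 and 4.52 in fat control, below detection, and 7.95, 6.99 and 7.65 in fat knockout, at least 5.39-fold higher. In spleen it read 5.75, 5.06 and 5.06 in control and 5.38, 5.08 and 5.39 in knockout. Fat knockout thus stood apart from the other 3 groups, which lay close to background. The interaction was 2.85 (SE 0.48, 95% interval 1.82 to 3.89, p 6.41e-05, adjusted p 0.319).

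Within fat alone Slc10a7 rose by 2.85 (SE 0.34, adjusted p 0.0223), the only gene of 10025 called there (0.00998%). That call ended in 9 of the 12 fits that each left out 1 array. The adjusted p was 0.0552 and 0.0523 without spleen control 2 and 3, and 0.0618, 0.0600 and 0.0678 without spleen knockout 1, 2 and 3. It was 0.0515 and 0.0863 without fat control 1 and 3, and 0.0567 and 0.0931 without fat knockout 1 and 3. The difference itself lay between 2.64 and 3.07 in those 12 fits. It was 1.88 with an offset of 50 in place of 16, 1.35 with no background correction, 1.24 in the authors' normalized table and 0.65 as the mean of probes. The other 2 Slc10a7 probes did not rise in fat, with differences of −0.05 and −0.85. Their interactions were 0.49 and −0.73, and the mean of the 3 probes had one of 0.87.

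A pair of mitochondrial enzymes followed. Acadm, the medium-chain acyl-CoA dehydrogenase of fatty acid oxidation, read 6.76, 7.33 and 6.74 in spleen control and 5.97, 5.88 and 5.82 in spleen knockout. In fat it was undetected in control, at 4.88, 4.38 and 4.47, and read 5.78, 6.66 and 6.57 in knockout, at least 2.36-fold higher. Both tissues parted without overlap and in opposite directions. Its interaction was 2.81 (SE 0.47, 95% interval 1.79 to 3.83, adjusted p 0.319), and the fat minus spleen difference was −2.36 in controls and 0.44 in knockouts.

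Aldh5a1, the succinate semialdehyde dehydrogenase that ends the breakdown of GABA, had an interaction of 3.59 (SE 0.63, 95% interval 2.21 to 4.96, adjusted p 0.319). It read 5.09, 4.76 and 4.48 in fat control and 8.16, 6.82 and 7.86 in fat knockout. Its spleen arrays overlapped, at 6.22, 5.88 and 5.69 in control and 5.15, 4.45 and 5.93 in knockout. A second Aldh5a1 probe gave −0.37, the opposite sign.

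Ripply3, a corepressor known for binding T-box factors, read 7.50, 6.94 and 7.06 in fat knockout. In the other groups it lay between 4.55 and 5.66, with fat control at 5.05, 4.55 and 4.85. It was thus above the lower groups on every fat knockout array, with an interaction of 2.69 (SE 0.48, 95% interval 1.63 to 3.74, adjusted p 0.319). Crip2, a LIM domain protein, was detected in fat control, at 5.68, 6.17 and 6.03, and read 8.06, 7.93 and 8.04 in fat knockout. Its spleen arrays read 4.42, 5.01 and 5.69 in control and 4.63, 4.47 and 4.75 in knockout. The Crip2 interaction was 2.47 (SE 0.48, 95% interval 1.41 to 3.53, adjusted p 0.541).

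Of the other 5 genes above 0, Afdn, which links cell junctions to actin, had the highest interaction of the 10, 3.62 (SE 0.75, adjusted p 0.678). Its fat knockout was at least 5.82-fold above an undetected control. Abhd8 followed at 2.78 (SE 0.61, adjusted p 0.723), with fat knockout at least 2.69-fold above control. Cenpa, the histone variant of the centromere, was detected on all 12 arrays. It read 9.21, 8.74 and 8.77 in spleen control, 8.35, 7.96 and 8.57 in spleen knockout, 8.27, 8.14 and 8.03 in fat control and 9.10, 9.85 and 9.36 in fat knockout. Neither tissue overlapped, and the interaction was 1.90 (SE 0.44, adjusted p 0.900), while a second Cenpa probe gave −0.29.

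Ctps and Alg3 were the 2 genes above 0 in which another probe gave a similar value. Ctps makes the nucleotide CTP, and its probes gave 1.86, 1.74 and 0.50. Alg3 is a mannosyltransferase of N-glycan assembly, and its probes gave 1.89, 1.60 and 0.54. In fat, Alg3 knockout was at least 1.47-fold above an undetected control. Over the 5 genes above 0 with a further probe, 5 of 8 further probes had the same sign and 2 an unadjusted p below 0.05.

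**Figure D3:**
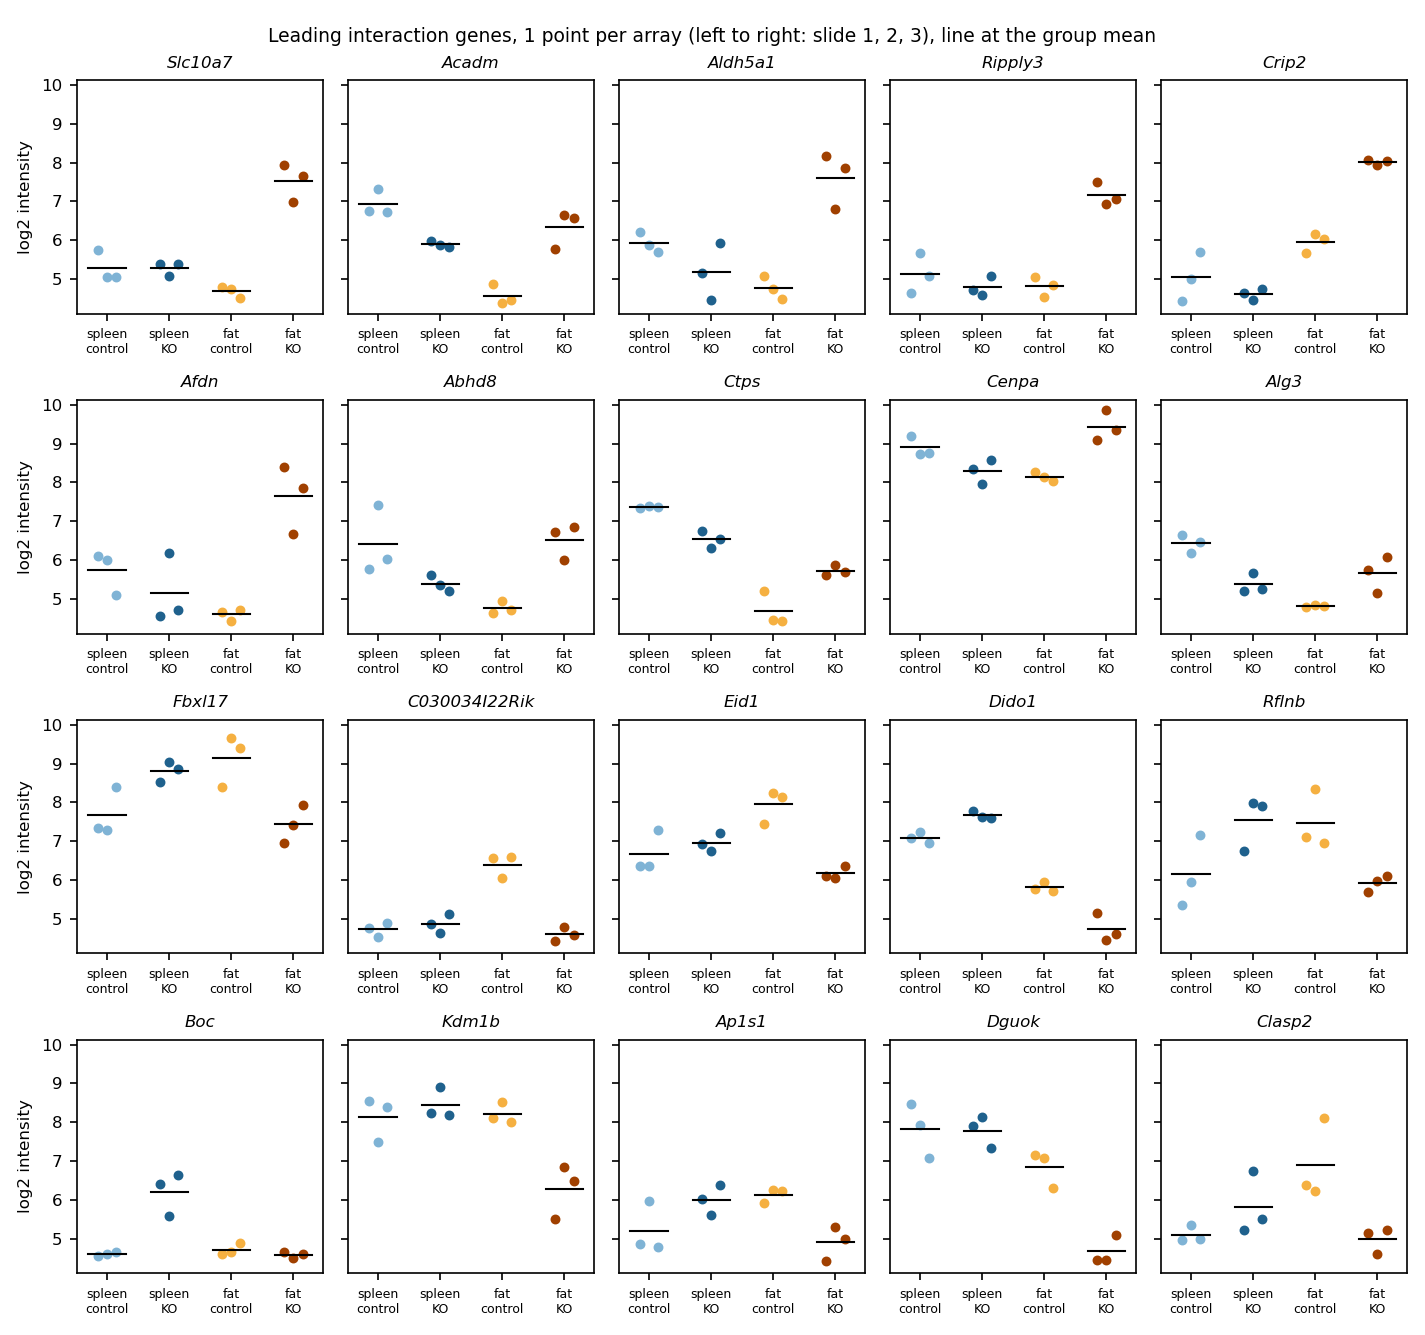
Log2 intensity (vertical axis) of the 20 leading genes in the 4 groups (horizontal axis; KO, T-bet knockout), 1 point per array ordered by slide, with a line at each group mean. In the first 10 panels all 3 fat knockout arrays lie above all 3 fat control arrays, as for Crip2 at 7.93 to 8.06 against 5.68 to 6.17.

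The 10 genes leading below 0 ranged from −1.65 to −2.93, with adjusted p from 0.723 to 0.999. The signs of fat and spleen were opposite in 9, and fat did not overlap in 9, where 4.27% of all genes had fat knockout below control without overlap. Spleen did not overlap in 3, where 4.75% of all genes had spleen knockout above control. No fat knockout array was detected in 4 of them. Fbxl17, a substrate receptor of a ubiquitin ligase, was detected everywhere. It read 7.33, 7.30 and 8.39 in spleen control and 8.53, 9.03 and 8.85 in spleen knockout, against 8.40, 9.65 and 9.39 in fat control and 6.95, 7.41 and 7.93 in fat knockout. Knockout lay above control in spleen and below it in fat without overlap in either, and the interaction was −2.85 (SE 0.61, 95% interval −4.19 to −1.51, adjusted p 0.723).

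Eid1, an inhibitor of histone acetyltransferases, differed in fat alone by its arrays. It read 7.44, 8.25 and 8.14 in fat control and 6.11, 6.05 and 6.37 in fat knockout. The spleen arrays overlapped, at 6.37, 6.35 and 7.29 in control and 6.93, 6.75 and 7.20 in knockout, and the interaction was −2.06 (SE 0.50, adjusted p 0.900). C030034I22Rik read 6.56, 6.04 and 6.59 in fat control and was undetected in fat knockout, which was at least 2.40-fold lower. The other 2 groups were detected on 1 array each, and the interaction was −1.93 (SE 0.42, adjusted p 0.723). That value sets a fat difference of −1.80 against spleen values near background.

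Dido1, a chromatin-binding PHD finger protein, parted in both tissues. It read 7.09, 7.23 and 6.95 in spleen control against 7.77, 7.63 and 7.59 in knockout. In fat it read 5.77, 5.94 and 5.72 in control and was undetected in knockout, at least 1.60-fold lower. The interaction was −1.65 (SE 0.41, adjusted p 0.900), but the 4 other Dido1 probes gave 0.36, −0.13, −0.82 and 0.07. Rflnb, a filamin-binding protein, read 5.37, 5.95 and 7.15 in spleen control and 6.74, 7.98 and 7.92 in spleen knockout, which overlapped. In fat it read 7.11, 8.35 and 6.95 in control and 5.70, 5.98 and 6.09 in knockout, which did not. It had the most negative interaction of the 10, −2.93 (SE 0.75, adjusted p 0.999).

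Boc, a Hedgehog coreceptor, was detected on the spleen knockout arrays and on no others, and passed the filter only through them. It was undetected in spleen control and both fat groups and read 6.41, 5.58 and 6.64 in spleen knockout, at least 2.47-fold above spleen control. Its fitted interaction of −1.74 therefore rests on fat values at background and says nothing about fat. Dguok, the mitochondrial deoxyguanosine kinase, was undetected in fat knockout, at least 3.26-fold below fat control, with an interaction of −2.13 (SE 0.60). Kdm1b, a histone demethylase, gave −2.25 (SE 0.60) and its other probes −2.16 and −0.21. Ap1s1, a clathrin adaptor subunit, gave −2.02 (SE 0.55) and its other probes 0.51 and −0.58. Clasp2, which binds microtubules, gave −2.64 (SE 0.74) and its other probes 0.54 and 0.13.

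T-box factors bind DNA that contains the letters GTGTGA, often as GGTGTGA, so the promoters of these genes were read for both, the shorter lying inside the longer, on either strand. Windows ran from 250 bases before to 50 after each start site, from RefSeq on GRCm38.p6, and 17 of the 20 leading genes had one. The shorter motif lay in 3 of them (17.6%), Alg3, Clasp2 and Crip2, in 13.1% of the 8112 tested genes with a window and in 16.4% of all 27025 genes with one. It was in 1 of the 3 Clasp2 windows and in 1 of the 2 Crip2 windows. Of the 14 measured genes of the T-bet and type 1 list with a window it lay in 2 (14.3%), Cxcr3 and Il12rb2. The longer motif lay in 0 of both sets and in 3.94% of tested genes. A match describes letters and not a bound site. Shown are a leading gene on each side of 0 and Cxcr3, the T-bet target gene best known in Tregs, with the motif or its reverse complement in capitals. Alg3 is chr16:20610712-20611011, minus strand, with the motif at −32 from the start. Clasp2 is chr9:113793080-113793379, plus strand, with the reverse complement at −1. Cxcr3 is chrX:101734098-101734397, minus strand, with the reverse complement at −234.
Alg3: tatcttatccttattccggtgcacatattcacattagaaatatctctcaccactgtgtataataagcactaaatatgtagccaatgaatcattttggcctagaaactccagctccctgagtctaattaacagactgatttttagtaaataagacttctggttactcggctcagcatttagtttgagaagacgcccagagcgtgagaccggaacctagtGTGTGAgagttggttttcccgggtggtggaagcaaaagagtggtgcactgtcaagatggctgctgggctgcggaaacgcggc
Clasp2: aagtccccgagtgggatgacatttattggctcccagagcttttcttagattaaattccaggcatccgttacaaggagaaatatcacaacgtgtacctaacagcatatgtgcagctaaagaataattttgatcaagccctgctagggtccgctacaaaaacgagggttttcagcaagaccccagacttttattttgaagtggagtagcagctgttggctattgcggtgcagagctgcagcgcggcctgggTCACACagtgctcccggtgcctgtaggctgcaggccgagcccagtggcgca
Cxcr3: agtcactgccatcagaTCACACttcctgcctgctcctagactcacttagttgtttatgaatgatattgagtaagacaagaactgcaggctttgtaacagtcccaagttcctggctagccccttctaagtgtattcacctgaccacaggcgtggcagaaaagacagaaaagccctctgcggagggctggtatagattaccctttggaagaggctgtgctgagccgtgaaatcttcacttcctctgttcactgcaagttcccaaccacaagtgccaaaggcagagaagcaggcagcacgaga

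Of each gene list below, the 2 measured members with the smallest interaction p are named by rule, so their unadjusted p describe them and test nothing. Genes of the T-bet and type 1 program, where a tissue-dependent effect of T-bet would be looked for, had interactions on both sides of 0. Of 23 listed genes 19 were measured. The test called 0 of them, 1 had an unadjusted p below 0.05 (3.81% of all genes did), and 6 were above 0 (48.8% of all genes were). Their median was −0.10 beside −0.02 over all genes. On the 3 slides the list's median was −0.15, −0.42 and −0.19.

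Cxcr3, whose promoter is printed above, averaged lower in knockout in both tissues; it and Ifng were picked after their values were seen. It read 7.25, 5.49 and 7.69 in spleen control against 4.51, 7.26 and 4.95 in knockout, and 7.42, 6.35 and 7.89 in fat control against 4.47, 6.49 and 5.34 in knockout. In each tissue slides 1 and 3 had the knockout lower and slide 2 had it higher. The differences were −1.78 in fat and −1.24 in spleen, called in neither, and the interaction was −0.54 with a wide 95% interval of −3.02 to 1.93. Ifng, the gene of interferon gamma, had differences of −1.53 and −1.23 and an interaction of −0.31 (95% interval −3.60 to 2.98). These intervals hold both no difference between tissues and a large one. The list as a whole did not share the lower knockout values of these picked genes. Of its 19 measured genes 9 had a knockout minus control difference below 0 in fat and 9 in spleen. The medians of that difference were 0.05 in fat and 0.15 in spleen, beside 0.01 and 0.00 over all genes.

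Eomes, a T-box factor closely related to T-bet, had the largest value above 0 of the list. It read 4.40, 5.03 and 4.72 in spleen control, 4.63, 4.68 and 4.66 in spleen knockout, 5.14, 5.29 and 4.57 in fat control, and 5.58, 6.88 and 8.37 in fat knockout. It was detected on 1 spleen array of 6, on 2 fat control arrays and on all 3 fat knockout arrays, which lay above the other 9. Its interaction was 2.00 (SE 0.79, 95% interval 0.29 to 3.72, unadjusted p 0.0257, adjusted p 0.999). The fat difference alone was 1.94. The fitted interaction sets it against spleen values near background, with a difference of −0.06, and says nothing about spleen. It is also a marker of cytotoxic lymphocytes, whose list of 8 measured genes had array means of 6.54 to 7.82 on fat control arrays and 6.40 to 7.63 on fat knockout arrays. The part of such cells in the Eomes value was not tested, and in bulk RNA fewer cells of a type and less RNA per cell cannot be told apart.

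The chemokine gene Ccl3 lay at the other end with Ccl4. Ccl3 was undetected in spleen and read 5.09, 7.59 and 9.78 in fat control against 4.75, 4.85 and 6.01 in fat knockout. The fat groups overlapped, with a fat difference of −2.28, and Ccl3 passed the filter only through fat. The fitted interaction was −2.15 (SE 1.22, 95% interval −4.80 to 0.51). It sets the fat difference against spleen values at background and says nothing about spleen. Ccl4, picked after its values were seen, gave −2.56 (95% interval −6.37 to 1.25).

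Of 14 type 2 genes 10 were measured, with 0 called, 0 at an unadjusted p below 0.05 and a median of −0.11, which turned to 0.03 with median scaling. Il5, the eosinophil growth factor, was high in fat of both genotypes. It read 11.99, 12.49 and 11.26 in fat control and 12.12, 12.06 and 10.97 in fat knockout, and was undetected on all 6 spleen arrays, at 4.35 to 5.05. The fat groups overlapped, with a fat difference of −0.20, and Il5 passed the filter only through fat. The fitted interaction was −0.64 (SE 0.57, 95% interval −1.88 to 0.59). It includes a spleen difference of 0.44 between undetected arrays, which says nothing about spleen. Il4 had the lowest value, −1.41, and it came from a single fat control array at 9.21 beside 5.56 and 4.82. The slide values of Il4 were 0.14, −4.93 and 0.55.

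**Figure D4:**
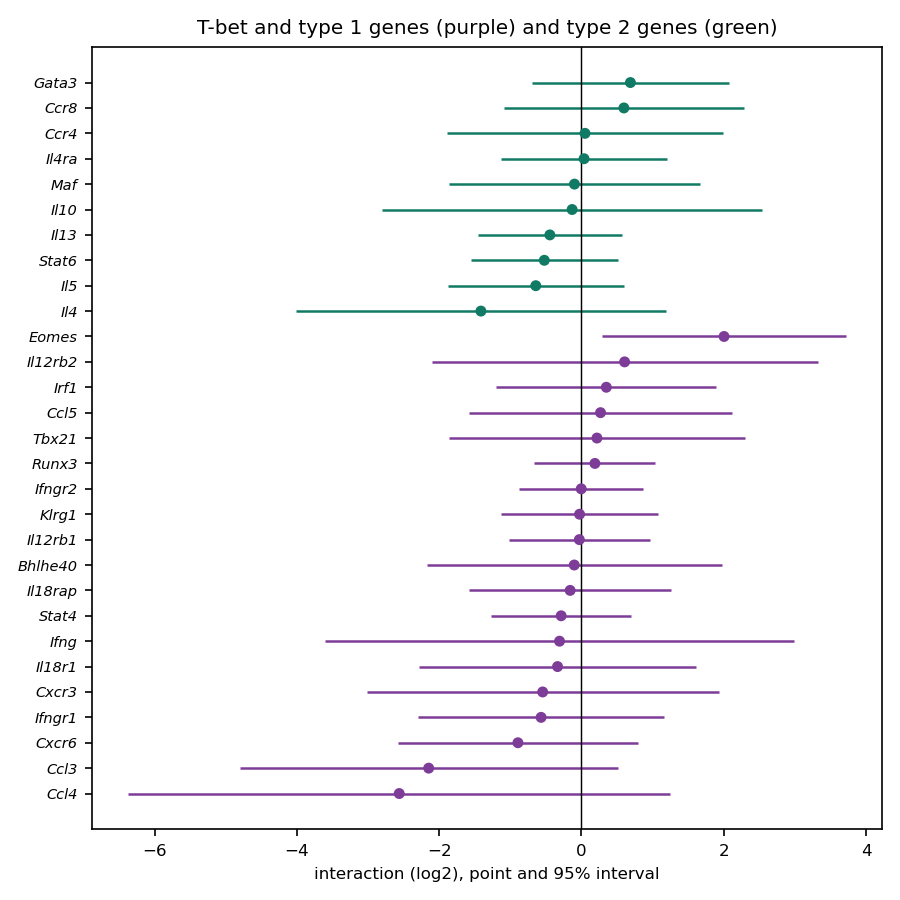
Interaction in log2 (horizontal axis) of the 19 measured T-bet and type 1 genes (purple) and the 10 measured type 2 genes (green); points are estimates and bars 95% intervals from the limma fit. Only the interval of Eomes, from 0.29 to 3.72, leaves out 0. Eomes was detected on 1 spleen control array and on no spleen knockout array, so its value rests on fat. On every spleen array 3 of the purple genes and 1 of the green genes were undetected.

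The adipose Treg program had no interaction that could be called. Of 25 genes 20 were measured, 0 were called, 0 had an unadjusted p below 0.05 and 10 were above 0. The values ran from −0.89 to 1.12 with a median of 0.05, which turned to −0.03 with cyclic loess. Pparg, the gene of PPARγ, read 8.51, 8.04 and 8.29 in fat control and 8.92, 8.13 and 8.83 in fat knockout. In spleen it was detected on 1 of 6 arrays, and the groups overlapped in both tissues. Its interaction was 1.12 (SE 0.69, 95% interval −0.38 to 2.62), and a second probe gave 0.59. The value joins a fat difference of 0.34 and a spleen difference of −0.78. The detected spleen array was spleen control 2, at 6.67 beside 5.03 and 4.47 in that group.

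Irf4, a transcription factor of effector Tregs, came closest to a call in that list. It read 6.88, 6.74 and 7.11 in spleen control and 6.92, 6.64 and 6.57 in spleen knockout, and 7.84, 7.34 and 7.81 in fat control and 8.44, 8.08 and 8.40 in fat knockout. The fat groups did not overlap and the spleen groups did. The interaction was 0.84 (SE 0.41, 95% interval −0.05 to 1.73), with 0.56, 0.84 and 1.13 on the slides. Gata3, picked after its values were seen, was at 0.69 (95% interval −0.70 to 2.08).

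Genes of Treg identity mostly lay above 0 without a call. In the Treg core list 16 of 18 were measured, 13 were above 0, 0 had an unadjusted p below 0.05 and the median was 0.33. Slide medians were 0.18, 0.71 and −0.10. Gpr83, a G protein-coupled receptor of Tregs, had the highest value, 1.22 (95% interval −0.40 to 2.84). It read 8.12, 8.70 and 7.77 in spleen control, but in fat it was detected only on knockout array 1, at 6.90. A second Gpr83 probe gave −0.47, the opposite sign. Socs2, a suppressor of cytokine signalling, gave 0.79 (95% interval −0.42 to 2.01), and Ctla4, an inhibitory receptor picked after its values were seen, 0.71 (95% interval −0.57 to 1.99).

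Activation and checkpoint genes had a median of 0.36, with 14 of 19 above 0 and 0 at an unadjusted p below 0.05. Their slide medians were 0.19, 0.69 and 0.33. Irf4 is also in that list, and Cd83, a surface marker of activated lymphocytes, gave −1.41 (95% interval −3.71 to 0.88). Resting lymphoid T cell genes lay on the other side, with a median of −0.49 and 4 of 12 above 0, and slide medians of −0.41, −0.17 and −0.36. Ccr7, the chemokine receptor for lymph nodes, read 9.60, 9.32 and 9.35 in spleen control and 9.56, 9.52 and 9.15 in spleen knockout. In fat it read 8.30, 8.29 and 8.28 in control and 7.18, 6.28 and 7.79 in knockout. All 3 fat knockout arrays lay below all fat controls, and the interaction was −1.20 (SE 0.52, 95% interval −2.33 to −0.06, unadjusted p 0.0404, adjusted p 0.999). Satb1, a chromatin organiser of resting T cells, gave −0.67 (95% interval −1.93 to 0.59).

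Ccr6, a chemokine receptor of the type 17 list, had the most negative value of any listed gene. It read 8.36, 9.27 and 7.39 in spleen control, 9.10, 9.28 and 8.26 in spleen knockout, 8.33, 9.78 and 6.94 in fat control, and 4.73, 7.57 and 4.52 in fat knockout. On every slide the fat knockout was the lowest of the 4 arrays, yet the fat groups overlapped, since slide 2 gave the highest reading in every group. The interaction was −3.29 (SE 1.22, 95% interval −5.95 to −0.62, unadjusted p 0.0199, adjusted p 0.999), and a second Ccr6 probe gave −0.67. The interleukin receptor gene Il1r1 gave 0.87 (95% interval −0.55 to 2.28), with slide values of −0.37, 2.24 and 0.73. It was detected on 4 arrays, 1 of them in spleen, and a second Il1r1 probe gave 0.22. The medians were 0.46 over the 6 measured type 17 genes and 0.03 over the 18 measured homing and adhesion genes, a list that also holds Ccr6 and Ccr7.

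Of the Treg effector molecules Gzmb, the gene of granzyme B, was undetected in spleen and read 5.83, 5.83 and 6.56 in fat control against 7.60, 6.70 and 7.57 in fat knockout. Fat did not overlap, with a fat difference of 1.22, and Gzmb passed the filter only through fat. The fitted interaction was 1.24 (SE 0.48, 95% interval 0.20 to 2.28, unadjusted p 0.0231, adjusted p 0.999). It sets the fat difference against spleen values at background and says nothing about spleen. The 13 measured genes of that list had a median of 0.02, and Lgals3, the gene of a galectin, gave 1.13 (95% interval −0.90 to 3.15).

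Interferon-response genes had 2 of 14 members at an unadjusted p below 0.05, both above 0, beside 1.99% of all genes. They were the interferon-inducible GTPases Igtp and Gbp2. Igtp read 8.80, 8.26 and 8.37 in fat control and 9.73, 10.05 and 9.24 in fat knockout, without overlap, and 9.27, 9.42 and 8.69 against 8.68, 9.13 and 8.83 in spleen. Its interaction was 1.45 (SE 0.47, 95% interval 0.41 to 2.48, unadjusted p 0.0102, adjusted p 0.999). Gbp2 gave 1.78 (SE 0.66, 95% interval 0.34 to 3.22, adjusted p 0.999), with slide values of 3.04, 2.30 and −0.01, and its other probes 1.67 and −1.04. The list as a whole had a median of 0.21, and 8 of 14 were above 0.

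Immediate early genes leaned the other way, with 4 of 21 above 0, a median of −0.25 and slide medians of −0.16, −0.02 and −0.33. Egr3, a transcription factor induced by receptor signalling, read 8.67, 9.03 and 8.73 in fat control and 6.93, 8.47 and 7.30 in fat knockout. Its spleen arrays read 8.77, 8.31 and 8.34 in control and 9.48, 8.49 and 8.76 in knockout. The fat groups did not overlap, and the interaction was −1.68 (SE 0.59, 95% interval −2.97 to −0.38, unadjusted p 0.0154, adjusted p 0.999). Jun, a subunit of a transcription factor of early activation, gave −1.40 (95% interval −3.54 to 0.74), and 0 of 21 were called.

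Acadm aside, no lipid gene stood out. The list of lipid uptake and oxidation had 18 of 22 genes measured, a median of −0.16 and values from −0.50 to 2.81, and Acadm was the 1 member at an unadjusted p below 0.05. Pparg, described above, is also in that list and had the next smallest p, with 1.12 (95% interval −0.38 to 2.62). Enzymes of steps neighbouring Acadm, picked after their values were seen, lay nearer to 0. Acadl, the long-chain dehydrogenase, gave −0.14 (95% interval −1.30 to 1.01), and Acadvl, the very-long-chain one, 0.14 (SE 0.52). In the sterol list Srebf2, the master regulator of cholesterol synthesis, gave −1.86 (unadjusted p 0.0325, adjusted p 0.999), but its other probe gave 0.69, and the 10 measured sterol genes had a median of 0.07. Srebf1, the related regulator of fatty acid synthesis, gave 1.42 (95% interval −0.47 to 3.31).

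Ribosomal protein and oxidative phosphorylation genes had the smallest median SE of the lists, 0.40 and 0.45. All 20 oxidative phosphorylation genes were measured, 17 of them with a 95% interval within −2 and 2, and their median was −0.07, turning to 0.10 with median scaling. Its members with the smallest p were Uqcrfs1 of respiratory complex III at −0.81 (95% interval −1.93 to 0.31) and Sdha of complex II at −0.83 (95% interval −2.37 to 0.71). The medians were −0.05 over 12 glycolysis genes and −0.09 over 11 ribosomal protein genes, which turned to 0.05 and 0.04 with median scaling, and −0.22 over 15 heat shock and stress genes. The glucose transporter gene Slc2a3 gave −0.85 (95% interval −2.53 to 0.82) and Ldha, of lactate production, −0.40 (95% interval −1.29 to 0.49). The ribosomal genes Rpl4 and Rpl22 gave −0.85 and −0.57. Gadd45a, a DNA damage response gene, gave −1.93 (95% interval −4.50 to 0.64) and the chaperone gene Hsph1 0.58 (95% interval −0.39 to 1.54). All of these intervals contain 0.

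Cell cycle genes had a median of 0.44 with 12 of 17 above 0. Tyms, the thymidylate synthase, was the member at an unadjusted p below 0.05, with −1.48, but its 3 other probes gave 1.38, 0.54 and −0.12. Stmn1, which regulates microtubules, gave 0.93 (95% interval −0.31 to 2.16). The 8 measured MHC class II genes had a median of −0.16, with H2-DMa at −0.69 and H2-Eb1 at −0.57. None of these lists had a called member.

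**Figure D5:**
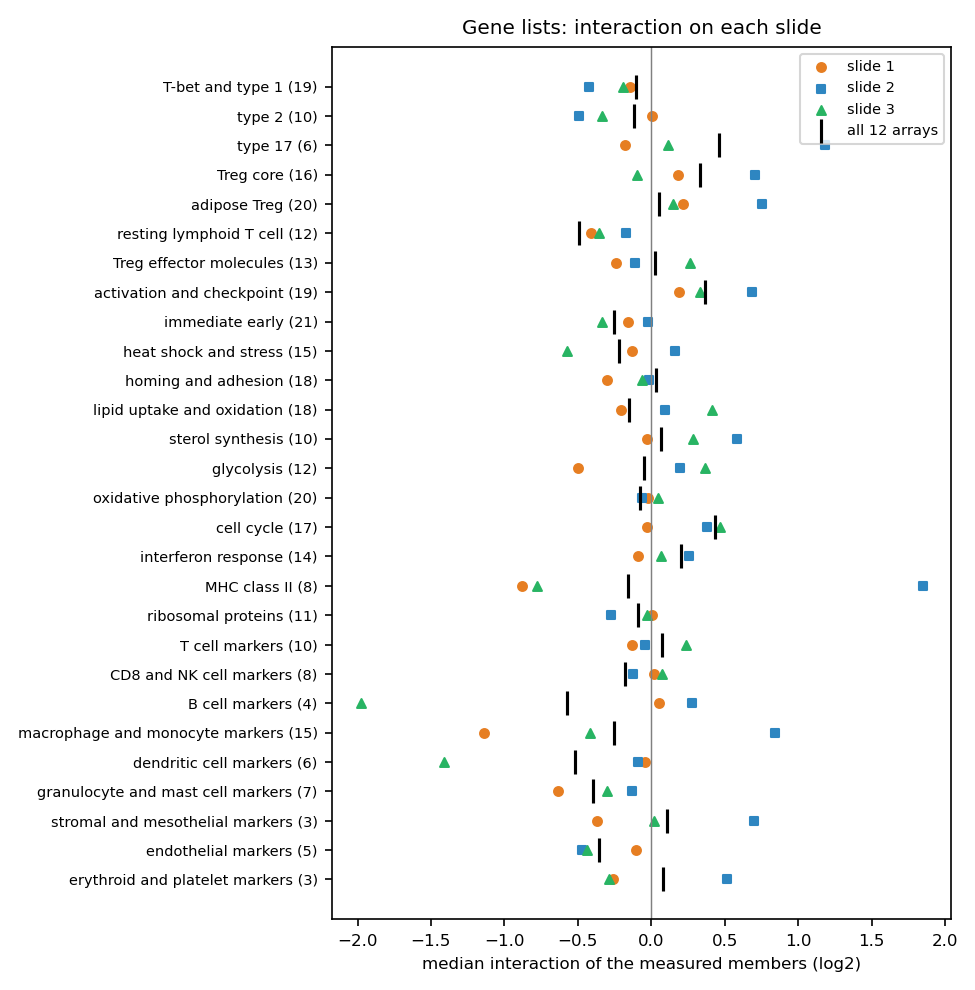
Median interaction in log2 (horizontal axis) of the measured members of each gene list (vertical axis, number measured in brackets) on slide 1, 2 and 3 (points) and over all 12 arrays (black bars); the adipocyte list, with 1 measured member, is left out. Slides spread widely for MHC class II, at −0.88, 1.85 and −0.78, and for macrophage and monocyte markers, at −1.14, 0.84 and −0.42.

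T cell markers were read on every array. They are not limited to Tregs, so they do not check that label. Their 10 measured genes averaged between 8.90 and 9.78 on all arrays, with a median interaction of 0.07. The receptor chain gene Cd247 gave 0.88 (95% interval −0.67 to 2.44) and Cd4, the coreceptor, −0.62 (95% interval −1.83 to 0.58). A second probe gave 1.94 for Cd247 and 0.63, the opposite sign, for Cd4. Markers of other cells were also present in fat and differed between fat arrays. The 15 measured macrophage and monocyte genes averaged 6.14 in spleen control and 5.91 in spleen knockout, against 8.69 in fat control (7.76 to 9.77) and 8.32 in fat knockout (7.88 to 8.63). Their median interaction was −0.25, with 5 of 15 above 0 and values from −1.61 to 1.15. The mannose receptor gene Mrc1 gave −1.61 (95% interval −3.84 to 0.61) and Ctsd, of a lysosomal protease, −0.68. Fabp4, an adipocyte and macrophage gene, ranged from 7.01 to 11.37 on the fat arrays and gave an interaction of −0.21 with a 95% interval of −3.36 to 2.93. The median of the macrophage list and the value of Fabp4 changed sign between slides, while Mrc1 and Ctsd were below 0 on all 3. The part of these cells in other values was not tested.

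CD8 and NK cell markers had a median interaction of −0.18 over 8 genes. Klrk1, an activating NK receptor, was undetected in spleen and gave −1.06 (95% interval −2.81 to 0.68). It passed the filter only through fat, so the value sets a fat difference of −0.88 against background and says nothing about spleen. Among granulocyte and mast cell markers Cpa3, a mast cell protease, read 6.69, 5.44 and 6.77 in fat control. It was undetected in both spleen groups and in fat knockout, at 4.39, 4.87 and 4.76, at least 2.24-fold lower than fat control. Both measured Cpa3 probes passed the filter only through the fat control arrays, so their fitted interactions of −1.52 and −1.69 set that group against background and support no difference between tissues. Fcer1a, the IgE receptor chain of the same cells, gave −1.05 (95% interval −2.24 to 0.15). The 7 measured markers of that list averaged 5.75 to 6.55 on fat control arrays and 5.46 to 6.37 on fat knockout arrays, and their median interaction was −0.40.

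B cell markers had a median of −0.57 over 4 genes, of which slide 3 gave −1.98 and the other two 0.05 and 0.28, and their members Blk and Fcer2a gave −0.63 and −0.51. Dendritic cell markers had one of −0.52 over 6 genes, with the integrin gene Itgax at −1.32 (95% interval −3.07 to 0.43) and Fscn1 at −0.86. Endothelial markers had one of −0.35 over 5, with the cadherin gene Cdh5 at −0.57 and Egfl7 at −0.35. The 3 stromal and mesothelial genes had one of 0.10, with Krt19 at −0.36 and the matrix gene Sparc at 0.64. They were undetected on every spleen array, so these values say nothing about spleen. The 3 erythroid and platelet genes had a median of 0.08, with the platelet factor gene Pf4 at −0.79 and the globin gene Hba-a1 at 0.34. The 95% intervals of all these marker genes contain 0.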

How the data were processed

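Tregs were measured on 12 Illumina bead arrays. The authors deposited mean bead intensity and a detection p-value per probe, exported with GenomeStudio per the submitters' processing notes. The authors' deposited normalized intensity table, which kept the order of probes within each array, was an alternative. The aligner or build behind the probes is not given in the sources used here. In limma 3.58.1 (R 4.3.3) the background was corrected with nec from the detection p-values (offset 16), followed by quantile normalization and log2. Probes with detection p below 0.05 in at least 3 of 12 arrays were kept (20367). By the platform annotation 34885 probes had 1 symbol, 18 several and 10378 none, and Entrez numbers of 34807 matched with 0 symbols changed. The probe with the highest mean stood for each gene, which left 10025. No 2 arrays held identical values.

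A model with 1 mean for each group used all 12 arrays, with eBayes (residual degrees of freedom 8, prior 3.88) and Benjamini-Hochberg adjustment, called below 0.05. SE is the moderated standard error. A probe undetected in a whole group has only a bound there, and "at least" folds take the floor at the lowest signal detected on the same arrays (4.83 to 5.53). The number of arrays limits the precision. The script was tested on simulated data.

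The members and the 29 lists (410 genes, 307 measured, 38 in more than 1 list) were chosen with earlier results of these data known. Named were the 10 genes on each side of 0 with the smallest p and slide values of 1 sign, the 2 members per list with the smallest interaction p, Tbx21 and Foxp3; others are said to be picked. Lists are described by counts and medians. Same-numbered arrays shared a slide: the deviations of 18 such pairs correlated at −0.05 to 0.35 (4 over 0.1), and the fit with a replicate block is an alternative. Others were normalization, offset, filter, probe choice, weights and leaving out each array.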

Additional observations from a re-analysis of the deposited data

How the results depend on the processing

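The interaction had 0 called genes under all 26 alternatives, 25 of them planned and 1, weights per tissue, added after the data were seen. The smallest adjusted p ranged from 0.0816, without fat control replicate 3, to 0.999. Among the settings that tested the same 10025 genes, 301 to 556 had an unadjusted p below 0.05. The fit with a replicate block also called 0 genes for the interaction (smallest adjusted p 0.490), 1 in fat and 0 in spleen, so the pairing changed no call. Of 1872 values of 73 named genes, 1852 kept their sign and 0 were called. All but Tbx21 and Foxp3 were chosen by a small interaction p, and the alternatives reuse the same arrays. The kept signs are therefore no separate support. The sizes of the 20 leading interactions, 1.65 to 3.62 in the main setting, fell by over 1.5 times in 14 genes with an offset of 50 (range 0.961 to 2.55), in 18 with no background correction (0.704 to 2.19), in 18 with the authors' normalized table (0.626 to 2.11) and in 6 with the mean of probes (0.434 to 3.62). Dido1 reached −0.43, Alg3 0.66 and Slc10a7 0.87.

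The count of called genes in fat, 1 in the main setting, was 3 with an offset of 50 (Crip2, Ripply3 and Slc10a7). It was 2 with the authors' normalized table (Crip2 and Slc10a7) and 2 with no filter (C030034I22Rik and Slc10a7). With each kept probe it was also 2, Slc10a7 and a probe without a single symbol (difference −2.88, adjusted p 0.0226). It was 0 with no background correction, the mean of probes, trend and robust moderation, array weights and weights per tissue, and 0 to 3 with 1 array left out. In spleen, 0 in the main setting, it was 1 with no filter. The cause was not tested.

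With the mean of probes the interaction of Foxp3 was −0.0928, of Tyms 0.0799 and of Cd4 0.0021, the opposite sign. Leaving out 1 array turned 17 values. Over all alternatives, and not only those, Hba-a1 ranged from −0.57 to 1.19, Foxp3 from −0.35 to 0.93 and Tbx21 from −0.37 to 0.93. Fabp4 ranged from −1.34 to 0.88, Krt19 from −0.88 to 0.29 and Blk from −0.98 to 0.0835. Fscn1 ranged from −1.58 to 0.21, Sparc from −0.51 to 1.502 and Pf4 from −1.53 to 0.19. Of the 29 list medians 6 kept their sign in every alternative, namely Treg core, resting lymphoid, activation, heat shock, cell cycle, and granulocyte and mast cell genes, and 5 turned with cyclic loess or median scaling. Probes near background, an SE of 0.67 for the median gene and 3 arrays a group limit all values.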
